A study of Drosophila melanogaster with 18 samples.

Results

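The JAK/STAT pathway of Drosophila was followed through 7 of its genes, out of 17609 genes counted in each library. They are the cytokine genes upd1, upd2 and upd3, the receptor gene dome, the kinase gene hop, the transcription factor gene Stat92E and the feedback gene Socs36E. The members were taken by name, with symbols joined to the gene identifiers of the count tables, and all 7 were found. The measurement is mRNA sequencing of S2 cells, an embryonic Drosophila line with blood cell traits, in 18 libraries that form 9 groups of 2. The Zld line was studied induced with CuSO4 and untreated, as was the Grh line, and the Twi line was studied induced with 40 µM CuSO4. Wild type S2 cells, with no factor named in their genotype, received 0, 40, 100 or 1000 µM CuSO4, the 0 µM cells being the untreated wild type. For the induced Zld and Grh lines the labels write the CuSO4 dose as 1000 mM and 100 mM, whereas wild type doses are in µM. Each line was set against the wild type group with the same number, and which unit is right was not settled. Cells were harvested at 48 h. All groups share the S2 background, and in the lines the factor was expressed ectopically when copper was added, so copper is part of every induced group. The promoter of each construct and whether a line is 1 clone are not given in the sources used here. The labels do not say whether the 2 replicates of a group are separate cultures, so every p-value measures the spread between these samples, which may be technical.

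In Drosophila, secreted Unpaired cytokines bind the receptor Domeless, which activates the Janus kinase Hopscotch. The kinase phosphorylates Stat92E, which then enters the nucleus and switches on target genes. One of these is Socs36E, whose product dampens the receptor and kinase in a negative feedback loop. In blood cells the pathway is known for its part in the response to wounding and infection and in the making of lamellocytes, and upd3 is a cytokine that hemocytes produce under such challenge.

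The libraries held 10459648 to 28575923 counted reads, and 3 counts, taken as the limit of what could be seen, equal 0.105 to 0.287 CPM (a count divided by the library total and multiplied by 1000000). The spread between the 2 libraries of a group, as chi-square over its degrees of freedom across genes, was 37.7 in wild type at 40 µM and 2.01 to 18.6 in the other groups. The 2 libraries at 40 µM therefore stand apart from each other, and the values of the members without each are given in the comparisons that use this group. The mRNA of each factor stood with its label: zld was at 5211 to 5503 CPM in the induced Zld line, grh at 985 to 1014 CPM in the induced Grh line and twi at 1595 to 1957 CPM in the induced Twi line. The untreated lines already held some, with 214 and 306 CPM of zld and 36.2 to 44.5 CPM of grh, so they are not cells without the factor. Of 10 hemocyte markers, srp, which encodes the GATA factor of blood cells, lay between 320 and 511 CPM over the libraries. Its group mean was lowest in the induced Zld line (322 CPM) and highest in the untreated Zld line (493 CPM). The summed level of the 10 markers also moved with the groups. It was 1848 to 2180 CPM in the induced Zld line, 3449 to 3563 CPM in the untreated Zld line and 3171 to 3218 CPM in wild type at 1000 µM. It was 2779 to 2825 CPM in the induced Grh line, 2534 to 2873 CPM in the untreated Grh line and 2266 CPM in both libraries of wild type at 100 µM. In the induced Twi line it was 4488 to 6058 CPM, against 1619 to 2474 CPM in wild type at 40 µM, and it was 3945 to 4051 CPM in untreated wild type. In untreated wild type most of the sum was Pxn, at a mean of 2829 CPM, the highest of its group means. The lowest group mean of Pxn was 294 CPM, in wild type at 40 µM. Most of the sum in the induced Twi line was Col4a1 and vkg, at means of 2384 and 1696 CPM. In that line Hml and Sr-CI had their lowest group means, at 1.72 and 0.316 CPM. Against wild type at 1000 µM, 0 of the 10 markers were called higher and 8 lower in the induced Zld line, where 19.1% of all genes were called higher and 17.3% lower. In the induced Grh line 3 were called higher and 5 lower than in wild type at 100 µM (33.6% and 27.2% of all genes), and in the induced Twi line 2 higher and 3 lower than in wild type at 40 µM (6.25% and 4.27%). Against their untreated lines, the induced Zld line had 0 higher and 7 lower (23.0% and 20.1% of all genes) and the induced Grh line 2 higher and 4 lower (16.7% and 10.6%). Over all libraries the summed level was 0.475 to 12.3 CPM for 3 crystal cell markers, 0 to 6.29 CPM for 4 fat body markers, 3.51 to 11.9 CPM for 4 germline markers and 15.4 to 37.3 CPM for 4 neuron markers. The 4 follicle markers summed to 115.4 to 124.7 CPM in the induced Zld line, 73.5 to 92.3 CPM in the untreated Zld line and 74.2 to 77.8 CPM in wild type at 1000 µM, and to 22.7 to 88.1 CPM in the other groups, most of it br. The 4 lamellocyte markers summed to 513 to 515 CPM in the induced Grh line, 400 to 406 CPM in the untreated Grh line and 462 to 479 CPM in wild type at 100 µM, and to 369 to 676 CPM over all libraries, most of it mys. Of these, atilla had a mean of 29.9 CPM in the induced Grh line and a median of 0 over the libraries, and Mmp1 was highest in the induced Grh line as well, at a mean of 148 CPM. Itgbn was instead highest in wild type at 1000 µM (mean 44.0 CPM) and mys in wild type at 40 µM (511 CPM). Of the 4, 2 were called higher and 1 lower in the induced Grh line than in wild type at 100 µM (33.6% and 27.2% of all genes). Against the untreated Grh line it was again 2 and 1 (16.7% and 10.6%). With atilla at a median of 0, these counts are not read as support. The part of these markers in the results on the pathway was not tested. In bulk libraries such as these, fewer cells of a type and less RNA per cell cannot be told apart.

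Per transcript length, the signal transduction genes stood far above the cytokine genes. The median over the 18 libraries was 102 TPM (the same scale corrected for transcript length, computed from the counts and the deposited gene length) for Stat92E, 67.3 TPM for Socs36E, 49.5 TPM for dome and 25.3 TPM for hop. It was 6.95 TPM for upd3, 2.33 TPM for upd2 and 0.0455 TPM for upd1. The cytokine genes and Socs36E varied most between groups: the highest group mean CPM was 5.15 times the lowest for upd2, 2.82 times for Socs36E and 2.65 times for upd3. For Stat92E this ratio was 1.56, for dome 1.44 and for hop 1.42. With the 9 groups in order of their mean, the 2 libraries of a group overlapped those of the next in 7 of 8 steps for upd1, 6 for upd2 and dome, 5 for upd3, 4 for hop and Stat92E and 3 for Socs36E, so most neighbours in the order do not stand apart.

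**Figure D1:**
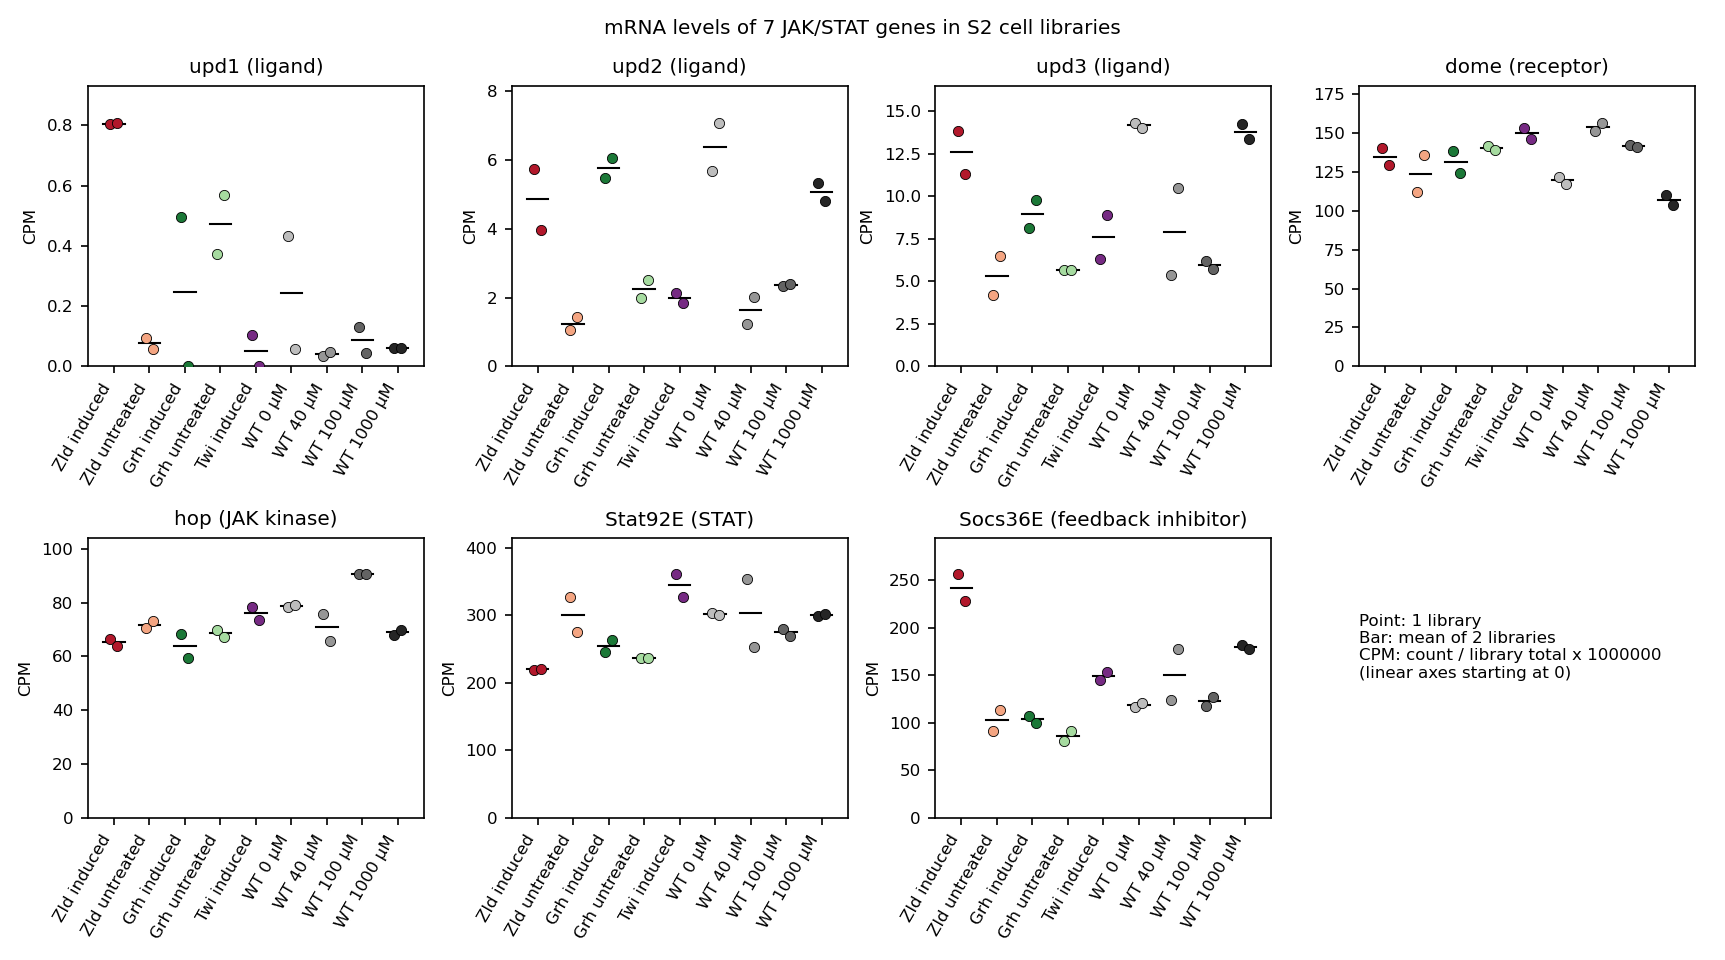
mRNA level of each of the 7 genes in CPM (linear axes that start at 0), with 1 point per library and a bar at the mean of the 2 libraries of each group. The points of upd2 and upd3 are high in untreated wild type and wild type at 1000 µM and low in both untreated lines, and those of Socs36E are highest in the induced Zld line, at 228 and 256 CPM.

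The 3 cytokine genes are neighbours on the X chromosome, on build dm6. The gene upd2 (FBgn0030904) runs from 18240654 to 18243284 on the minus strand, upd3 (FBgn0053542) from 18277233 to 18284596 on the plus strand and upd1 (FBgn0004956) from 18305354 to 18309291 on the minus strand. Together they span 68.6 kb, with gaps of 33.9 kb between upd2 and upd3 and 20.8 kb between upd3 and upd1. The other 4 genes annotated between them, lncRNA:CR45607, lncRNA:CR45613, CG15059 and lncRNA:CR15061, each had a median of 0 CPM and none passed 0.309 CPM in any library. None of the exonic bases of the 7 members lies in another annotated gene, so their reads cannot be shared with an overlapping gene of this annotation.

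**Figure D2:**
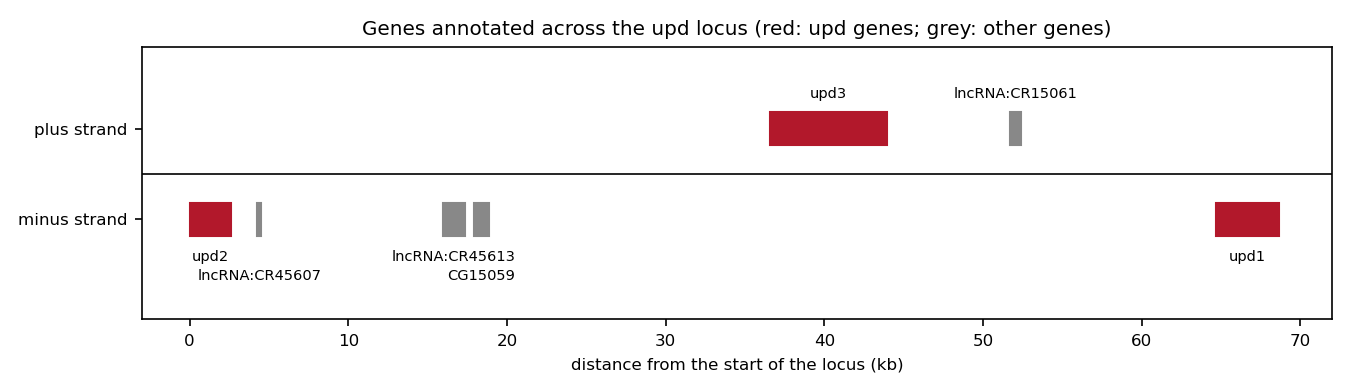
Map of the annotated genes across the upd locus by distance in kb from the start of upd2, with plus strand genes above the line and minus strand genes below it. The upd genes are red, the 4 other genes are grey, and the locus spans 68.6 kb.

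The cytokine genes upd2 and upd3 were both higher in the induced Zld line than in the same line without copper, but neither was called against wild type at 1000 µM. The gene upd2 encodes a cytokine that in adult flies acts as a fat body signal of the fed state. It had 5.74 and 3.97 CPM in the induced Zld line, 1.05 and 1.42 CPM in the untreated Zld line, and 5.34 and 4.82 CPM in wild type at 1000 µM. The induced libraries lay above both untreated libraries of the line and overlapped those of wild type at 1000 µM. Against the untreated line upd2 rose by a log2 change of 1.96 ± 0.29 (SE; edgeR quasi-likelihood test on 6 libraries, adjusted p = 0.0004). Against wild type at 1000 µM its log2 change was 0.05 ± 0.23 (edgeR, adjusted p = 0.882).

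The gene upd3, the injury and infection cytokine, followed the same order in the Zld line. It had 13.8 and 11.3 CPM in the induced Zld line, 4.21 and 6.47 CPM in the untreated line, and 14.2 and 13.4 CPM in wild type at 1000 µM. Its log2 change was 1.22 ± 0.20 against the untreated line (edgeR, adjusted p = 0.000703) and -0.02 ± 0.17 against wild type at 1000 µM (edgeR, adjusted p = 0.928). Against the untreated line upd3 was still called when any one library was left out, with changes of 0.94 to 1.64, and so was upd2, with changes of 1.64 to 2.27. In all, 5 of the 7 members were called in the induced against the untreated Zld line, where 43.2% of all genes tested were called. Of the 7, 4 were called against wild type at 1000 µM, where 36.4% of all genes were. Both counts include upd1, which was tested only because of the induced libraries. With it set aside they were 4 of 6 and 3 of 6.

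In the induced Grh line both cytokine genes were called higher than in the untreated line and than in wild type at 100 µM. The level of upd2 was 5.49 and 6.05 CPM in the induced Grh line, 1.99 and 2.52 CPM in the untreated Grh line, and 2.33 and 2.38 CPM in wild type at 100 µM. Both induced libraries were above all 4 others. The log2 change was 1.37 ± 0.19 against the untreated line (edgeR, adjusted p = 4.4e-05) and 1.45 ± 0.19 against wild type at 100 µM (edgeR, adjusted p = 7.44e-06). The level of upd3 was 8.11 and 9.76 CPM in the induced Grh line, 5.66 and 5.65 CPM in the untreated line, and 6.21 and 5.72 CPM in wild type at 100 µM. Its log2 change was 0.68 ± 0.14 (edgeR, adjusted p = 0.00134) and 0.74 ± 0.14 (edgeR, adjusted p = 0.000209) against those 2 groups, without overlap of libraries. As in the Zld line, both comparisons share the 2 induced libraries. In one fit over all 18 libraries upd3 was no longer called in either (adjusted p = 0.135 against the untreated line and 0.0535 against wild type). Against untreated wild type in place of wild type at 100 µM, the change of upd2 was -0.0599 (adjusted p = 0.887) and that of upd3 was -0.58 (adjusted p = 0.103), so the call holds against wild type with copper and not against wild type without it. Against wild type at 100 µM 3 of the 6 members tested were called, where 60.8% of all genes were, and against the untreated line 4 of 6, where 27.2% were.

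The wild type groups show how these 2 genes stood with copper alone. The level of upd2 was 5.67 and 7.08 CPM at 0 µM, 1.22 and 2.03 CPM at 40 µM, 2.33 and 2.38 CPM at 100 µM, and 5.34 and 4.82 CPM at 1000 µM. That of upd3 was 14.3 and 14.0 CPM, 5.35 and 10.5 CPM, 6.21 and 5.72 CPM, and 14.2 and 13.4 CPM at the same 4 doses. The libraries of both genes at 40 and 100 µM thus lay below those at 0 and 1000 µM. Against 0 µM, upd2 fell by 1.94 ± 0.31 at 40 µM (edgeR, adjusted p = 0.00335) and by 1.46 ± 0.19 at 100 µM (edgeR, adjusted p = 8.23e-06), on the log2 scale. At 40 µM it fell by 1.62 without replicate 1 and by 2.35 without replicate 2 of that dose, and was called in both. At 1000 µM its log2 change was -0.31 ± 0.21 (edgeR, adjusted p = 0.299).

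At 100 µM upd3 fell by 1.28 ± 0.12 (edgeR, adjusted p = 1.78e-07). Its log2 changes of -0.80 ± 0.31 at 40 µM (edgeR, adjusted p = 0.0765) and -0.02 ± 0.15 at 1000 µM (edgeR, adjusted p = 0.929) did not pass. At 40 µM upd3 was called with the replicate number as a block (-0.86, adjusted p = 0.0131) and in one fit over all 18 libraries (-0.83, adjusted p = 0.0119). The 2 libraries of that dose differ: without replicate 2 at 40 µM the change of upd3 was -1.38 and was called (adjusted p = 0.00283), and without replicate 1 it was -0.41 (adjusted p = 0.126). The 3 doses were tested against the same untreated libraries. Members called were 2 of 6 at 40 µM, 5 of 6 at 100 µM and 1 of 7 at 1000 µM, where 40.5%, 52.5% and 29.2% of all genes were called at these doses.

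Without copper, the lines and wild type already differed in these cytokine genes. In the untreated Zld line upd2 was lower than in untreated wild type by a log2 change of -2.22 ± 0.28 (edgeR, adjusted p = 0.000235) and upd3 by -1.26 ± 0.18 (edgeR, adjusted p = 0.000563). In the untreated Grh line the changes were -1.38 ± 0.20 for upd2 (edgeR, adjusted p = 5.09e-05) and -1.22 ± 0.12 for upd3 (edgeR, adjusted p = 1.28e-06). None of these 4 calls ended when one library was left out. The log2 changes of dome, hop, Stat92E and Socs36E in the untreated Zld line were 0.15, -0.04, 0.08 and -0.11, none called, and that of hop in the untreated Grh line was -0.10. Both comparisons share the untreated wild type libraries. In the untreated Zld line 2 of 7 members were called, where 20.7% of all genes were, and in the untreated Grh line 5 of 6, where 23.7% were. The mRNA of both cytokines was therefore lower in the uninduced lines than in wild type cells. With copper it was higher in both lines, whereas in wild type it was lower at 100 µM and not called at 1000 µM.

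The test of that difference, the interaction of line and copper, was called for both genes in both lines. For upd2 the response to copper was higher than that of wild type by a log2 difference of 2.27 ± 0.37 in the Zld line (edgeR, adjusted p = 0.00165) and 2.82 ± 0.28 in the Grh line (edgeR, adjusted p = 3.95e-07). For upd3 it was higher by 1.24 ± 0.24 (edgeR, adjusted p = 0.00546) and 1.95 ± 0.18 (edgeR, adjusted p = 1.81e-07). The interaction was called for 5 of 7 members in the Zld line, against 12.5% of all genes, or for 4 of 6 with upd1 set aside, and for 5 of 6 in the Grh line, against 43.3%. For upd3 in the Zld line it was no longer called in one fit over all 18 libraries (adjusted p = 0.0569). The interactions use the same libraries as the comparisons above and are no further evidence for them.

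**Figure D3:**
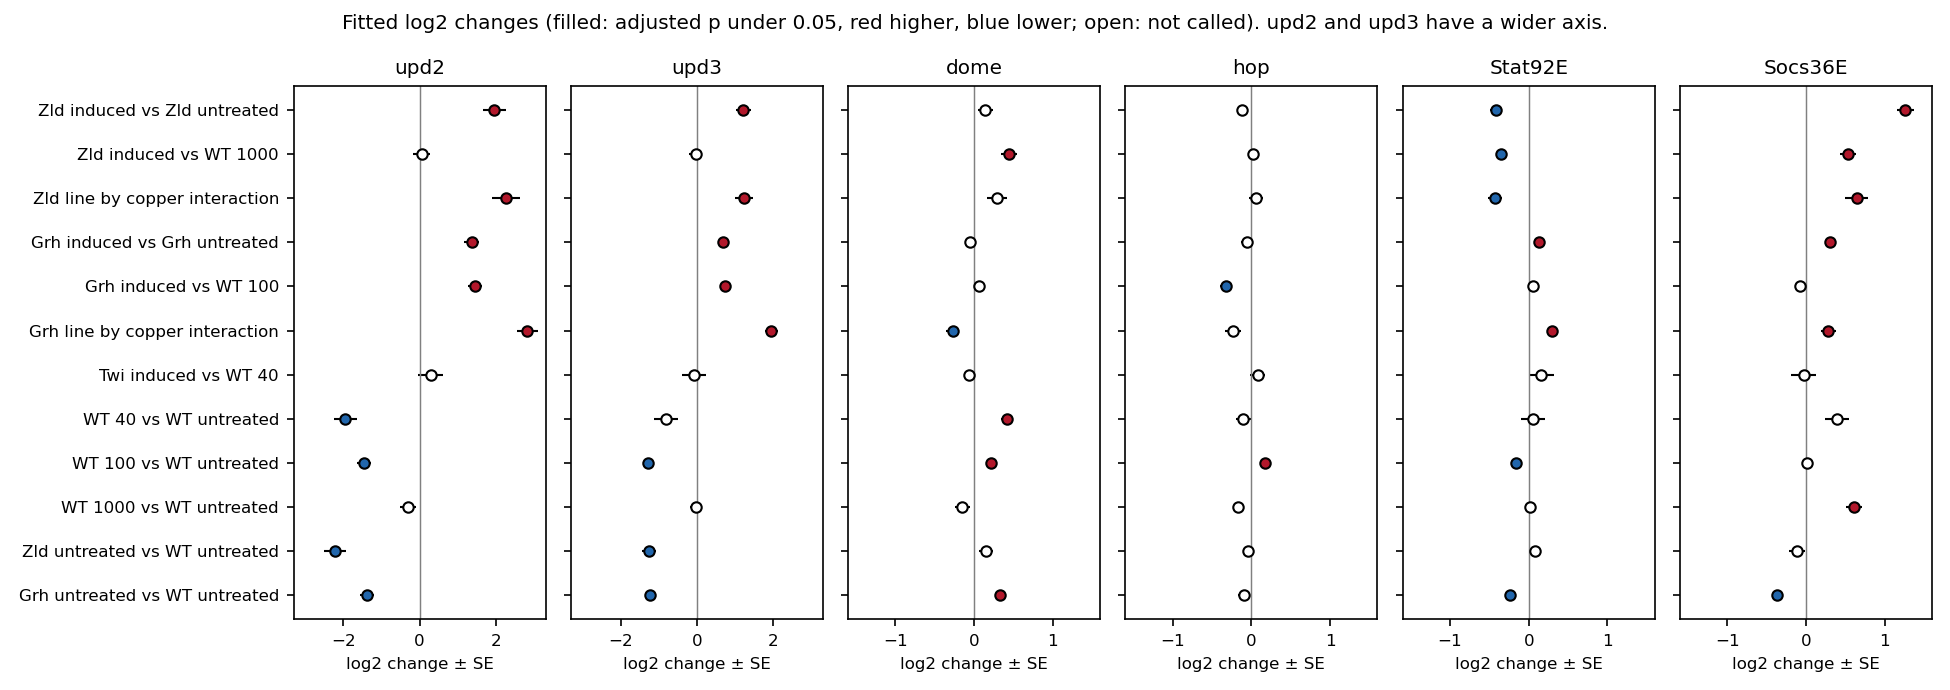
Fitted log2 change with its standard error for 6 members in 12 comparisons, filled where the adjusted p was under 0.05 (red higher, blue lower) and open where it was not. The points of upd2 lie at 1.96 and 1.37 for the induced against the untreated Zld and Grh lines and at -2.22 and -1.38 for the untreated lines against untreated wild type, on a wider axis than those of dome, hop, Stat92E and Socs36E.

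Both the amount and the make-up of the cytokine mRNA varied between groups. The summed TPM of the 3 genes was 14.7 ± 2.51 in the induced Zld line and 5.48 ± 1.42 in the untreated Zld line (SD, n = 2 each). It was 12.1 ± 1.20 in the induced Grh line and 6.70 ± 0.391 in the untreated Grh line, and 8.72 ± 1.43 in the induced Twi line. In wild type it was 17.5 ± 0.528 at 0 µM, 8.52 ± 3.76 at 40 µM, 7.65 ± 0.386 at 100 µM and 15.9 ± 0.797 at 1000 µM. The most abundant was upd3, with a mean share of 57.2% in the induced Grh line to 80.6% in wild type at 40 µM. The share of upd2 was highest in the induced Grh line, at 41.6% ± 0.785, and lowest in wild type at 40 µM, at 19.1% ± 1.82. These shares rest on few reads: upd2 had 11 to 122 counts per library and upd3 had 44 to 265.

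The first Unpaired gene, upd1, encodes the ligand best known from embryonic segmentation and the eye, and here it was at the edge of detection. It had 13 and 11 counts in the induced Zld line, 1 and 1 in the untreated Zld line, and 1 and 1 in wild type at 1000 µM. In the other groups it had 10 and 0 counts in the induced Grh line, 6 and 12 in the untreated Grh line, 2 and 0 in the induced Twi line. Wild type had 8 and 1 counts at 0 µM, 1 and 1 at 40 µM, and 2 and 1 at 100 µM. The induced Zld line held the 2 highest levels in CPM, 0.803 and 0.809, and replicates differed widely in the induced Grh line and in untreated wild type. The 4 other libraries with 6 or more counts of upd1 also held 10.1 to 16.0 CPM of zld, where the remaining libraries of wild type, Grh and Twi cells held at most 3.10 CPM, and the part of this in the upd1 counts was not tested. In the untreated Zld line, with more zld mRNA than these 4, upd1 had 1 count in each library. Over the group, the 24 counts of the induced Zld line against 2 in wild type at 1000 µM give a CPM ratio of 13.3 (95% exact binomial interval 3.31 to 116.3, counting error only). Against the 2 counts of the untreated Zld line the interval of the ratio was 2.73 to 96.0. The 10 counts of the induced Grh line against 3 in wild type at 100 µM give a ratio of 3.58 (interval 0.921 to 20.2), with all 10 in 1 library. The gene passed the filter on low counts only through the induced Zld libraries (cutoff 0.612 CPM), so its calls in that line had to show a difference and are not read as support. Against untreated wild type the log2 change of upd1 in the induced Zld line was 1.74 and was not called (adjusted p = 0.0779).

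The receptor gene dome (FBgn0043903, X, 19676061 to 19683518, minus strand) moved by small amounts. It encodes a transmembrane protein related to the mammalian interleukin-6 receptor family. It had 140 and 129 CPM in the induced Zld line, 112 and 136 CPM in the untreated Zld line, and 110 and 103 CPM in wild type at 1000 µM. The induced Zld libraries were above both of wild type at 1000 µM and overlapped the untreated line. The log2 change was 0.44 ± 0.10 against wild type at 1000 µM (edgeR, adjusted p = 0.00711) and 0.14 ± 0.10 against the untreated line (edgeR, adjusted p = 0.277). The first of these was not called without replicate 1 of the induced Zld line (adjusted p = 0.0894) or without replicate 2 of wild type at 1000 µM (adjusted p = 0.0811). The level was 138 and 124 CPM in the induced Grh line, 141 and 139 CPM in the untreated Grh line, and 142 and 141 CPM in wild type at 100 µM, and neither comparison was called (log2 changes -0.05 and 0.07, the second -0.10 with library size scaling).

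With copper alone dome was higher at the lower doses. Wild type had 122 and 117 CPM at 0 µM, 151 and 157 CPM at 40 µM, 142 and 141 CPM at 100 µM, and 110 and 103 CPM at 1000 µM. The log2 change against 0 µM was 0.41 ± 0.07 at 40 µM (edgeR, adjusted p = 0.00459) and 0.22 ± 0.06 at 100 µM (edgeR, adjusted p = 0.00492), and -0.15 ± 0.09 at 1000 µM (edgeR, adjusted p = 0.259). At 40 µM it was 0.42 without replicate 1 and 0.36 without replicate 2 of that dose, and was called in both. The call ended without replicate 1 or without replicate 2 of untreated wild type (adjusted p = 0.0542 and 0.0639). In the untreated Grh line dome was higher than in untreated wild type by 0.33 ± 0.06 (edgeR, adjusted p = 0.000412). The doses at which dome was higher in wild type are those at which upd2 was lower.

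The kinase gene hop (FBgn0004864, X, 11360930 to 11368098, minus strand), which encodes the only Janus kinase of Drosophila, was lower in the induced Grh line than in its copper control. It had 68.5 and 59.5 CPM in the induced Grh line, 69.8 and 67.3 CPM in the untreated Grh line, and 90.6 and 90.5 CPM in wild type at 100 µM. Both libraries of wild type at 100 µM were above all others in the series. The log2 change was -0.32 ± 0.07 against wild type at 100 µM (edgeR, adjusted p = 0.00101), and it was -0.46 without replicate 1 and -0.21 without replicate 2 of the induced Grh line. Against the untreated line it was -0.05 ± 0.07 (edgeR, adjusted p = 0.643). In wild type at 100 µM hop was higher than at 0 µM by 0.17 ± 0.07 (edgeR, adjusted p = 0.0353), a call that ended when any one of the 4 libraries was left out and under DESeq2 (adjusted p = 0.0746). At 40 µM, with 75.8 and 65.7 CPM against 78.4 and 79.2 CPM at 0 µM, its log2 change was -0.10 ± 0.09 (edgeR, adjusted p = 0.40), with -0.24 and -0.03 without replicate 1 and 2 of that dose, neither called. At 1000 µM it was -0.18 ± 0.06 (edgeR, adjusted p = 0.0518), which was called with library size scaling (-0.19, adjusted p = 0.0308). The induced Zld line had 66.5 and 63.8 CPM, against 68.1 and 70.0 CPM of hop in wild type at 1000 µM, and the log2 change was 0.02 ± 0.07 (edgeR, adjusted p = 0.845). The sign of that change differs from the CPM ratio because fold changes use TMM scaling and CPM uses library size alone; scaled by library size it was -0.08. Against the untreated Zld line hop changed by -0.11 ± 0.07 (edgeR, adjusted p = 0.212).

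The gene of the transcription factor itself, Stat92E (FBgn0016917, 3R, 20535323 to 20552311, minus strand, 11 annotated transcripts), was lowest in the induced Zld line. It had 219 and 220 CPM in the induced Zld line, 327 and 275 CPM in the untreated Zld line, and 299 and 302 CPM in wild type at 1000 µM. The induced libraries lay below all 4 others. The log2 change was -0.42 ± 0.07 against the untreated line (edgeR, adjusted p = 0.000785) and -0.35 ± 0.07 against wild type at 1000 µM (edgeR, adjusted p = 0.00334). Both calls held when any one library was left out, with changes of -0.52 to -0.35 and of -0.36 to -0.35. The difference from the wild type response to copper was -0.43 ± 0.09 (edgeR, adjusted p = 0.00751), and was no longer called over all 18 libraries (adjusted p = 0.0998). In the same line the mRNA of Stat92E was thus lower while that of Socs36E, its target, was higher.

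In the Grh line the changes of Stat92E were small. It had 246 and 263 CPM in the induced Grh line, 237 and 237 CPM in the untreated line, and 280 and 270 CPM in wild type at 100 µM. A log2 change of 0.14 ± 0.05 against the untreated line was called (edgeR, adjusted p = 0.048), but not with the replicate number as a block (adjusted p = 0.0842), under DESeq2 (adjusted p = 0.17) or when replicate 2 of the induced Grh line was left out (adjusted p = 0.147) or replicate 1 or 2 of the untreated Grh line was (adjusted p = 0.132 and 0.214). Relative to wild type at 100 µM it was 0.06 ± 0.05 (edgeR, adjusted p = 0.318), and -0.11 with library size scaling. In the untreated Grh line Stat92E was lower than in untreated wild type, with 303 and 300 CPM, by a log2 change of -0.24 ± 0.04 (edgeR, adjusted p = 0.000635). With copper at 100 µM, the log2 change of Stat92E in wild type was -0.16 ± 0.04 (edgeR, adjusted p = 0.00616), which was not called without replicate 2 at 100 µM (adjusted p = 0.0612). At 40 and 1000 µM it was 0.06 ± 0.15 and 0.01 ± 0.06 (edgeR, adjusted p = 0.785 and 0.908), and at 40 µM it was -0.23 without replicate 1 and 0.26 without replicate 2 of that dose, not called in either. In one fit over all 18 libraries the calls of Stat92E at 100 µM (adjusted p = 0.322) and in the untreated Grh line (adjusted p = 0.215) ended, as did those of dome and hop at 100 µM (adjusted p = 0.0669 and 0.0994).

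The feedback gene Socs36E (FBgn0041184, 2L, 18138675 to 18152417, minus strand, 3 annotated transcripts), often read as an output of the pathway, was highest in the induced Zld line. It had 256 and 228 CPM in the induced Zld line, 91.6 and 113 CPM in the untreated Zld line, and 182 and 178 CPM in wild type at 1000 µM. Both induced libraries were above all other libraries of the series. The log2 change was 1.26 ± 0.11 against the untreated line (edgeR, adjusted p = 2.24e-05), with 1.07 to 1.45 when one library was left out. Against wild type at 1000 µM it was 0.53 ± 0.11 (edgeR, adjusted p = 0.00425), and leaving out replicate 1 of the Zld line under induction gave 0.43, not called (adjusted p = 0.0567). Copper alone was also followed by a higher level: in wild type at 1000 µM Socs36E was higher than at 0 µM, where it had 117 and 121 CPM, by 0.61 ± 0.10 (edgeR, adjusted p = 0.00183). At 40 µM, with 124 and 177 CPM, its log2 change was 0.39 ± 0.16 (edgeR, adjusted p = 0.0839), and 0.60, called, without replicate 1 of that dose (adjusted p = 0.00075). Without replicate 2 it was 0.09 and was not called (adjusted p = 0.437). It was called with the replicate number as a block (0.38, adjusted p = 0.0298) and in one fit over all 18 libraries (0.38, adjusted p = 0.0461). At 100 µM the change was 0.02. The Zld line's response to copper was higher than that of wild type by 0.65 ± 0.15 (edgeR, adjusted p = 0.0176). Its call ended without replicate 1 of the Zld line under induction (0.52, adjusted p = 0.0919), without replicate 1 or 2 of wild type at 1000 µM (adjusted p = 0.0589 and 0.0783) or without replicate 2 of untreated wild type (adjusted p = 0.0652), and in one fit over all 18 libraries (adjusted p = 0.0871).

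In the Grh line Socs36E had 108 and 99.3 CPM when induced, 80.6 and 90.9 CPM when untreated, and 118 and 127 CPM in wild type at 100 µM. It changed by a log2 of 0.31 ± 0.07 against the untreated line (edgeR, adjusted p = 0.00409), lost without replicate 1 of the untreated line (adjusted p = 0.064), and -0.07 ± 0.07 against wild type at 100 µM (edgeR, adjusted p = 0.385). With library size scaling in place of TMM the second was -0.24 and was called (adjusted p = 0.00575), so its call depends on the scaling. In the untreated Grh line Socs36E was lower than in untreated wild type by a log2 change of -0.36 ± 0.07 (edgeR, adjusted p = 0.000806), not called in the fit over all libraries (adjusted p = 0.165). The induced Grh line therefore had more upd2 and upd3 mRNA than wild type at 100 µM with no call of Socs36E at TMM scaling, and the induced Zld line had more Socs36E mRNA than wild type at 1000 µM with no call of upd2 or upd3.

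**Figure D4:**
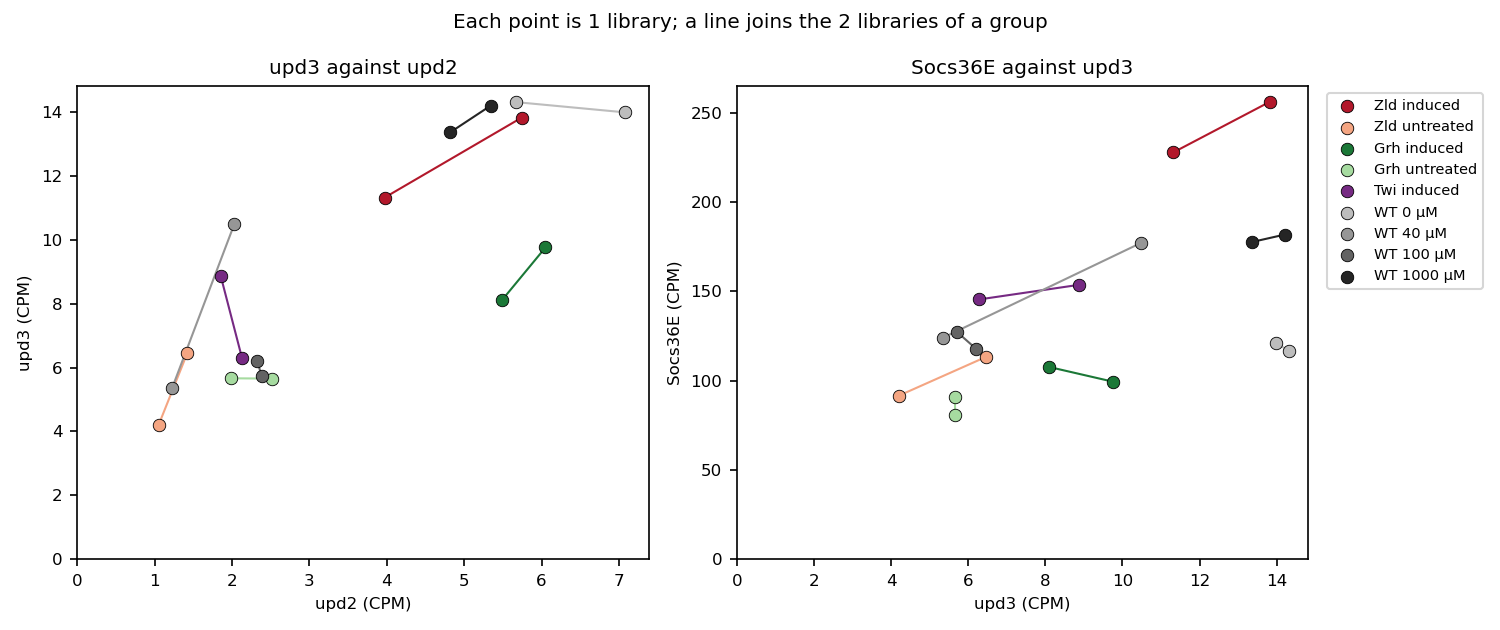
Levels of upd3 against upd2 (left) and of Socs36E against upd3 (right) in CPM, 1 point per library with a line joining the 2 libraries of a group. In the left panel upd2 and upd3 are high together and low together, and in the right panel the induced Zld libraries lie above all others in Socs36E, at 228 and 256 CPM.

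In the induced Twi line, made with the mesoderm factor Twist, no member was called against wild type at 40 µM. Of 6 members tested 0 were called by edgeR or by DESeq2 and 0 had an unadjusted p under 0.05, where 10.5% of all genes were called. The level of upd2 was 2.13 and 1.85 CPM in the induced Twi line, against 1.22 and 2.03 CPM in wild type at 40 µM, and that of upd3 was 6.29 and 8.88 CPM against 5.35 and 10.5 CPM. Socs36E had 145 and 154 CPM in the induced Twi line, against 124 and 177 CPM in wild type at 40 µM. The 2 wild type libraries enclosed the Twi values of upd3 and Socs36E. The log2 change of upd2 was -0.06 without replicate 1 and 0.66 without replicate 2 of wild type at 40 µM, not called in either. For Stat92E, with 361 and 327 CPM in the induced Twi line against 353 and 252 CPM, the log2 change of 0.16 ± 0.15 (edgeR, adjusted p = 0.573) was 0.42 and called without replicate 1 of wild type at 40 µM (adjusted p = 0.0356), and -0.07 and not called without replicate 2 (adjusted p = 0.667). For upd3 the log2 change was -0.06 ± 0.32, with -0.49 and 0.48 without replicate 1 and 2 of wild type at 40 µM, and for Socs36E it was -0.03, with -0.28 and 0.24. The level of dome was 153 and 146 CPM in the induced Twi line, against 151 and 157 CPM in wild type at 40 µM, a log2 change of -0.06 ± 0.07 (-0.10 and -0.05 without replicate 1 and 2 of the wild type). That of hop was 78.2 and 73.6 CPM in the induced Twi line, against 75.8 and 65.7 CPM, a log2 change of 0.08 ± 0.09 (0.18 and -0.03). None of these values of upd3, Socs36E, dome and hop was called. Against untreated wild type in place of wild type at 40 µM, upd2 changed by -1.67, upd3 by -0.88 and dome by 0.33, and all 3 were called (adjusted p = 3.26e-05, 0.00729 and 0.00626).

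The effects of the 3 factors, each taken against wild type at the same printed dose, were compared in one fit over all 18 libraries. Each such difference also holds the difference between the wild type groups used as controls. The Zld effect on upd2 was lower than the Grh effect by a log2 difference of -1.35 ± 0.35 (edgeR, adjusted p = 0.00565). It was higher for dome by 0.43 ± 0.13, for hop by 0.40 ± 0.12 and for Socs36E by 0.66 ± 0.21 (edgeR, adjusted p = 0.0176, 0.0165 and 0.0219). The differences for upd1, upd3 and Stat92E were not called. In this comparison 4 of 7 members were called, against 42.6% of all genes. The mean of upd2 was 4.86 and 5.77 CPM in the induced Zld and Grh lines. It was 5.08 and 2.35 CPM in wild type at 1000 and 100 µM. In the same order the means of dome were 135, 131, 107 and 141 CPM. Those of hop were 65.2, 64.0, 69.0 and 90.5 CPM, and those of Socs36E 242, 103, 180 and 122 CPM. Against its untreated line upd2 changed by 1.96 for Zld and 1.37 for Grh. The part of the wild type doses in these differences was not tested. The Zld effect was higher than the Twi effect for dome, by 0.49 ± 0.13, and lower for Stat92E, by -0.52 ± 0.15 (edgeR, adjusted p = 0.0143 and 0.0258), 2 of 7 against 21.1% of all genes. The Grh effect was higher than the Twi effect for upd2, by 1.10 ± 0.38, and lower for hop, by -0.47 ± 0.12 (edgeR, adjusted p = 0.0309 and 0.00603), 2 of 7 against 40.1%. Of these, the calls of upd2 between Zld and Grh and of hop between Grh and Twi held without any one library. Without replicate 2 of wild type at 40 µM the Stat92E difference between Zld and Twi was -0.29 and was not called (adjusted p = 0.0584), and that of upd2 between Grh and Twi was 0.78 and was not called (adjusted p = 0.128). Without replicate 1 of wild type at 40 µM these differences were -0.79 and 1.44 and were called, and 3 more were called: Socs36E between Zld and Twi (0.78), and upd3 (1.16) and Stat92E (-0.43) between Grh and Twi. The dome difference between Zld and Twi was 0.51 without replicate 1 and 0.47 without replicate 2 of that group, called in both, but not without replicate 1 of the induced Zld line (adjusted p = 0.0823) or replicate 2 of wild type at 1000 µM (adjusted p = 0.0779).

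Among 15 further regulators of the pathway, all of which were tested, few moved far. Against wild type at 1000 µM the induced Zld line had 4 called higher and 2 lower (median log2 change 0.002, against 0.02 over all genes), where 19.1% of all genes were called higher and 17.3% lower. Against the untreated Zld line there were 2 higher and 3 lower, where 23.0% and 20.1% of genes were. The gene et, which encodes a short receptor related to Dome that dampens signalling, had 7.53 and 6.47 CPM in the induced Zld line, 1.05 and 1.31 CPM in the untreated line, and 2.67 and 2.17 CPM in wild type at 1000 µM. Its log2 change was 2.56 against the untreated line and 1.64 against wild type (edgeR, adjusted p = 2.6e-05 and 0.00028), and it also rose in wild type from copper at 1000 µM by 1.19 (edgeR, adjusted p = 0.0104). The product of apt restrains STAT activity in border cells. This gene had 10.3 and 12.4 CPM in the induced Zld line against 33.3 and 29.7 CPM in the untreated line. Its log2 change was -1.45 (edgeR, adjusted p = 7.7e-06), in a comparison that also holds the addition of copper.

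In the induced Grh line 3 regulators were called higher and 6 lower against wild type at 100 µM, where 33.6% and 27.2% of all genes were, and 2 higher and 4 lower against the untreated line, where 16.7% and 10.6% were. The gene Cnot4, whose product is reported to assist Stat92E in Drosophila, had 56.5 and 62.8 CPM in the induced Grh line, 65.0 and 63.4 CPM in the untreated line, and 164 and 147 CPM in wild type at 100 µM. Its log2 change was -1.22 against wild type and -0.07 against the untreated line (edgeR, adjusted p = 1.4e-10 and 0.47). In the induced Twi line 1 regulator, Socs44A, was called higher (log2 change 0.35, edgeR adjusted p = 0.023) and 1, apt, lower (-0.73, edgeR adjusted p = 0.014), where 6.25% and 4.27% of all genes were. Without either library of wild type at 40 µM both were still called, Socs44A at 0.33 and 0.34 and apt at -0.55 and -0.89.

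Of 18 genes reported as targets of the pathway, 7 passed the filter in each of the 3 tables; none of the stress genes of the Tot family did. In the induced Zld line 5 were called higher and 2 lower against wild type at 1000 µM (19.1% and 17.3% of all genes), and 2 higher and 2 lower against the untreated line (23.0% and 20.1%). Both counts of higher genes include slbo, which passed the filter only through the induced Zld libraries and was not set aside. In the induced Grh line 1 was called higher and 5 lower against wild type at 100 µM (33.6% and 27.2% of all genes), and 3 higher and 0 lower against the untreated line (16.7% and 10.6%). The 5 lower include Tep1, which passed the filter only through wild type at 100 µM. In the induced Twi line 1, Tep2, was called higher and 0 lower (6.25% and 4.27% of all genes), with a log2 change of 0.99, and 1.16 and 0.81, both called, without replicate 1 and 2 of wild type at 40 µM. The median log2 change of the list was 0.45 for Zld and -0.44 for Grh against copper-treated wild type, with 0.02 and 0.05 over all genes. These medians include slbo for Zld and Tep1 for Grh.

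Both thioester protein genes of the list, whose products belong to the humoral immune response, moved in different directions. Tep1 had 6.11 and 5.81 CPM in the induced Zld line, 13.7 and 12.0 CPM in the untreated Zld line, and 2.19 and 2.77 CPM in wild type at 1000 µM, with log2 changes of -1.07 against the untreated line and 1.37 against wild type (edgeR, adjusted p = 0.00035 and 0.00041). In the induced Grh line it had 0.247 and 0.138 CPM, against 0.498 and 0.475 CPM in the untreated Grh line and 30.1 and 29.1 CPM in wild type at 100 µM. Its log2 change in the Grh line against wild type was -6.98 (edgeR, adjusted p = 2.1e-13), and against the untreated line, with 7 counts over the induced group and 18 over the untreated, it was not called. In this fit Tep1 passed the filter (cutoff 0.551 CPM) only through wild type at 100 µM. Its call against wild type therefore had to show a difference and is not read as support. Tep2 had 277 and 311 CPM in the induced Grh line, 84.3 and 78.0 CPM in the untreated line, and 114 and 109 CPM in wild type at 100 µM, with log2 changes of 1.89 and 1.57 (edgeR, adjusted p = 6.3e-13 and 2.4e-12). Tep2 was instead lower in the induced Zld line than in wild type at 1000 µM, with 134 and 121 CPM against 292 and 279 CPM, a log2 change of -1.06 (edgeR, adjusted p = 9.3e-06). The antiviral reporter gene vir-1 rose in wild type with copper, to 296 and 563 CPM at 40 µM and 202 and 205 CPM at 100 µM against 89.2 and 94.8 CPM at 0 µM, with log2 changes of 2.27 and 1.12 (edgeR, adjusted p = 0.0014 and 6.7e-11). The first was 2.64 without replicate 1 and 1.71 without replicate 2 at 40 µM, called in both. The gene slbo, which encodes a C/EBP factor of border cells, had 25 and 16 counts in the induced Zld line, 3 and 1 in the untreated line and 4 and 6 in wild type at 1000 µM. It passed the filter through the induced libraries, so its log2 changes of 3.17 and 2.25 against these groups had to show a difference. Without copper Tep1 was higher in the Zld line than in wild type by 2.01 and lower in the Grh line by -2.67, and in wild type Tep1 rose by 3.11 at 100 µM and Tep2 by 1.17 at 40 µM and 1.21 at 1000 µM, all called log2 changes. At 40 µM that of Tep2 was 0.96 and 1.31 without replicate 1 and 2, called in both.

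The JNK and AP-1 genes, which in Drosophila are known to induce upd genes in stressed tissue, were also counted, and 9 of 10 were tested. In the induced Zld line 1 was called higher and 3 lower against wild type at 1000 µM (19.1% and 17.3% of all genes), and 4 higher and 2 lower against the untreated line (23.0% and 20.1%). The median log2 changes against copper-treated wild type were -0.03 for Zld and 0.13 for Grh. In the induced Grh line 4 were higher and 4 lower against wild type at 100 µM (33.6% and 27.2% of all genes), and 3 higher and 1 lower against the untreated line (16.7% and 10.6%). In the induced Twi line 0 were higher and 2 lower (6.25% and 4.27%). The matrix metalloproteinase gene Mmp1, a common readout of JNK activity, had 150 and 146 CPM in the induced Grh line, 35.7 and 38.7 CPM in the untreated line, and 43.3 and 46.1 CPM in wild type at 100 µM. Its log2 changes were 2.03 and 1.89 (edgeR, adjusted p = 6.3e-13 and 5.7e-13). Mmp1 is also among the lamellocyte markers above, so both lists count the same gene. The phosphatase gene puc, the feedback target of JNK, was lower in the induced Grh line than in wild type at 100 µM, by -0.62 (edgeR, adjusted p = 8.3e-08), and was not called against the untreated line (0.12).

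**Figure D5:**
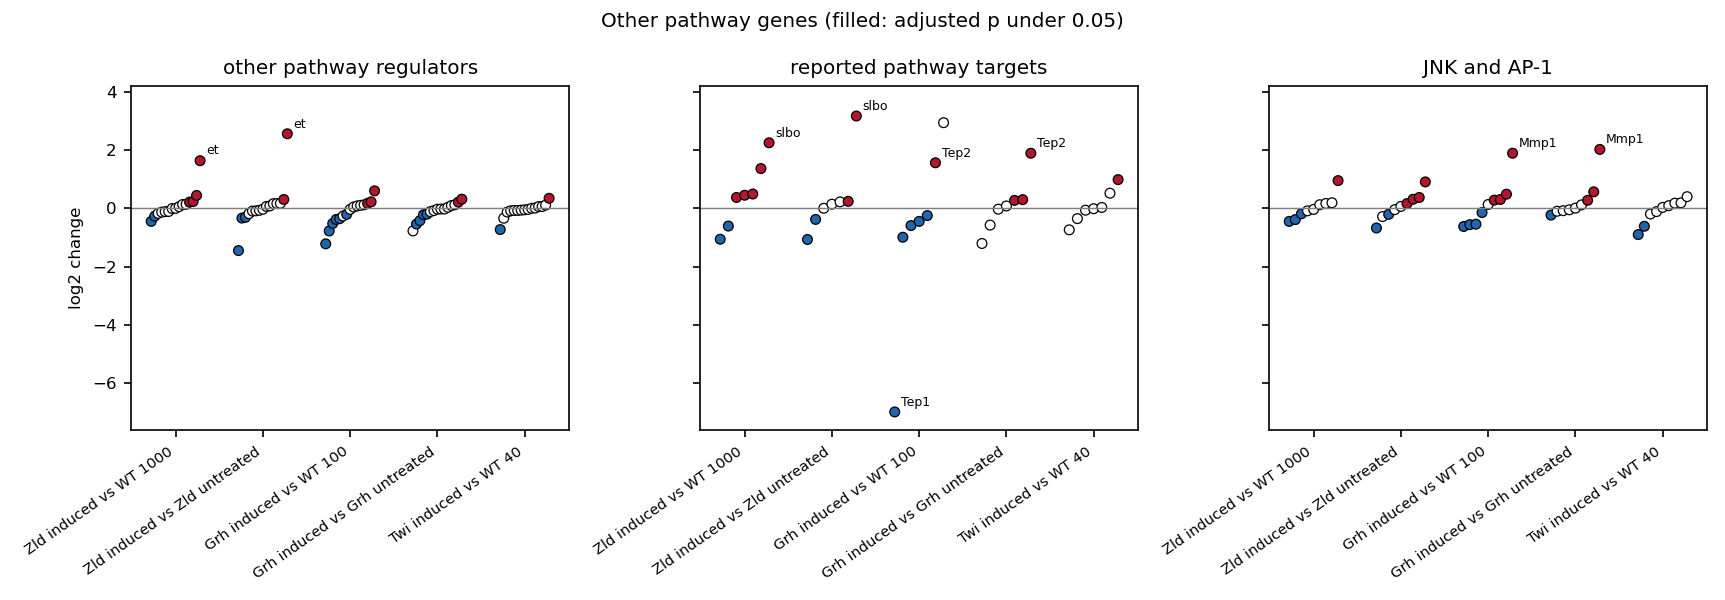
Fitted log2 change of each tested gene of 3 lists (other regulators, reported targets, JNK and AP-1) in 5 comparisons, filled where the adjusted p was under 0.05 (red higher, blue lower) and open where it was not. Most points lie close to 0, and the lowest is Tep1 at -6.98, for induced Grh cells against 100 µM wild type. There Tep1 passed the filter only through wild type at 100 µM, and in the Zld comparisons slbo passed only through the induced Zld libraries.

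As a description of how the members vary together, upd2 and upd3 had a Pearson r of 0.84 and a Spearman rho of 0.80 between log2 mean CPM over the 9 groups. For upd3 and Socs36E r was 0.63 and rho 0.57, and for Stat92E and Socs36E r was -0.05 and rho 0.08. The groups share lines, libraries and doses, so no test was made. Among the 9521 genes that pass the filter over all 18 libraries, those whose log2 CPM was most like that of upd3 were mah (r = 0.91), cv-2 (0.85) and CG8620 (0.84), over the 18 libraries. For upd2 they were CG31347 (0.86), CG5835 (0.85) and CG9875 (0.85). For Socs36E they were betaTub60D (0.94), sff (0.94) and MRP (0.94), and for Stat92E they were Nup133 (0.86), BuGZ (0.85) and GPHR (0.83). For dome they were eIF3m (0.87), CG6574 (0.85) and CG10063 (0.83), and for hop CG10492 (0.91), wcy (0.88) and FBgn0025830 (0.85). For upd1, at its low counts, they were CG4440 (0.91), bnb (0.88) and Z600 (0.87).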

How the data were processed

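The authors deposited 3 tables, 1 per factor, of raw read counts per gene with no normalization, and the gene length in bases. The submitters' processing notes name dm6, HISAT2 2.1.0, featureCounts (Subread 2.0) and DESeq2. Strand handling and the annotation release are not given in the sources used here. Per the labels, polyA RNA was sequenced from a TruSeq RNA kit, which does not mark strand. Untreated wild type appears in all 3 tables with the same counts and was used once.

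Levels are CPM by library size, or TPM from the deposited length. Log2 changes, with SE, come from edgeR 4.0.16 in R 4.3.3: filterByExpr, TMM scaling and the robust quasi-likelihood test (two-sided). P-values were adjusted after Benjamini-Hochberg across the whole table, and a gene was called at adjusted p under 0.05. Fits held the 6 libraries of 1 table, 8 libraries (copper at 100 and 1000 µM, untreated lines, interactions) or all 18 (differences between factor effects). The fits were tested on simulated data with the same spread for every gene and changes only in the more abundant genes. Such data do not cover genes at low counts or groups whose libraries differ widely. Members and lists were chosen with earlier results of these data known, and no list was tested as a set. In each comparison between groups all members are covered, in the interactions and factor differences the called ones, and other list genes are named where called with an absolute log2 change of 1 or more, at most 6 per list; Socs44A, puc and the call of apt in the Twi line were named after their values were seen. List genes that meet the rule in the interactions and in the differences between factors are not described one by one. Library size scaling was added as an alternative after seeing the data. DESeq2 1.42.0 was an alternative test.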

Additional observations from a re-analysis of the deposited data

Results flagged for a closer look

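The response to copper differed between a line and wild type, by the interaction test in edgeR, for 5 of 7 members in the Zld line and 5 of 6 in the Grh line. Of all genes, 12.5% and 43.3% were called. The Zld count includes upd1, which passed the filter only through the induced Zld libraries, and was 4 of 6 with it set aside. In the Zld line the log2 differences were 5.25 for upd1, 2.27 for upd2, 1.24 for upd3, 0.65 for Socs36E and -0.43 for Stat92E. The value for upd1 rests on 24 counts in the induced line and 2 in the untreated line, 2 in wild type at 1000 µM and 9 in untreated wild type, 8 of these in 1 library. Without that library, replicate 1 of untreated wild type, it was 3.29 and was not called. Its call also ended with some of the other libraries left out, and the values without 1 library were 3.29 to 5.99. Under DESeq2 on all the libraries of the fit it was not called (adjusted p = 0.0822). In the Grh line the differences were 2.82 for upd2, 1.95 for upd3, 0.29 for Stat92E, 0.28 for Socs36E and -0.27 for dome. The value for Socs36E was not called without replicate 1 of the induced Grh line (adjusted p = 0.0957) or of the untreated Grh line (0.119), without replicate 1 of wild type at 100 µM (0.115) or replicate 2 of untreated wild type (0.0846), and that of dome was not called without replicate 2 of wild type at 100 µM (0.0587) or of untreated wild type (0.0568).

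Some factor effects, each taken against copper-treated wild type, differed between lines in the fit over all libraries. Between Zld and Grh the log2 difference was -1.35 for upd2, 0.43 for dome, 0.40 for hop and 0.66 for Socs36E. Between Zld and Twi it was 0.49 for dome and -0.52 for Stat92E, and between Grh and Twi it was 1.10 for upd2 and -0.47 for hop. Only the calls of upd2 between Zld and Grh and of hop between Grh and Twi held without any one library. Each difference also holds the difference between the wild type groups used as controls, and the part of those was not tested.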

How the results depend on the processing

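No member called in a comparison changed sign when a library was left out, with DESeq2, with its size factors, without the filter or in one fit over all 18 libraries. Untreated wild type as control, in place of the copper-treated one, turned 4 values round: upd2 -0.0599 and upd3 -0.58 for Grh, and upd2 -1.67 and dome 0.33 for Twi. It left 0 members called for Grh, where 3 were, and 3 for Twi, where 0 were. One fit over all 18 libraries called 1 member in place of 4 for induced against untreated Grh, 4 in place of 2 for wild type at 40 µM, 2 in place of 5 at 100 µM, 3 in place of 5 for the untreated Grh line, 1 in place of 5 for the Zld interaction and 2 in place of 5 for the Grh interaction. Replicate numbers do not pair the samples by the labels. Over 36 pairs of groups the correlation of replicate deviations was -0.257 to 0.558, with a median of 0.0057. The highest was between wild type at 40 µM and the induced Twi line, which are compared with each other. With the replicate number as a block 4 members in place of 2 were called at 40 µM. Library size scaling, added after seeing the data, called 2 in place of 1 at 1000 µM and moved the median log2 change of all genes by -0.17 for Grh and -0.10 for Zld against copper-treated wild type, -0.10 for the untreated Grh line, -0.12 for Zld minus Twi and -0.13 for Grh minus Twi, and by less than 0.1 elsewhere. Leaving out one library gave 2 to 4 members called (4 in full) for Zld against wild type, 5 to 6 (5) against the untreated line, 3 to 5 (3) and 2 to 6 (4) for Grh, 0 to 1 (0) for Twi, 1 to 3 (2), 3 to 4 (5) and 1 (1) for wild type at 40, 100 and 1000 µM, 2 to 4 (2) and 5 (5) for the untreated Zld and Grh lines, 3 to 6 (5) and 3 to 5 (5) for the Zld and Grh interactions, and 1 to 4 (4), 0 to 3 (2) and 1 to 4 (2) for Zld minus Grh, Zld minus Twi and Grh minus Twi. The cause was not tested. Depth limits upd1, with 72 counts in all.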
